A study of Homo sapiens with 12 samples.

Results

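The 10 genes described here encode the proteins that carry iron across membranes and the reductases that prepare it for transport: the importers SLC11A2, SLC39A14 and SLC39A8, the exporter SLC40A1, the metalloreductases STEAP1, STEAP2, STEAP3 and CYBRD1, and the mitochondrial carriers SLC25A37 and SLC25A28. They were taken by gene symbol from a table of 56337 distinct genes, in which each symbol stood once. All 10 had a mean of at least 1 FPKM (fragments per kilobase of transcript, scaled to the mapped fragments of the library) over the 12 libraries, as did 13682 genes in all.

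RNA was sequenced from HEK293T, an established cell line derived from human embryonic kidney and expressing the large T antigen of SV40, whose genotype the labels give as wild type. Cells in 3 libraries (FAC+BafA1) received ferric ammonium citrate (FAC, a soluble ferric iron salt) at 0.1 mg/ml for 24 h and then bafilomycin A1 (BafA1), which blocks the vacuolar proton pump and so the acidification of lysosomes and endosomes, at 10 nM for 24 h. The other groups, also of 3 libraries each, held cells given BafA1 without FAC, cells given FAC without BafA1, and control cells given neither. All groups were grown in RPMI with fetal bovine serum, which contains transferrin. Replicates carry numbers in the labels, with no word on whether each was its own culture; p-values therefore measure only the spread between these libraries, which may be technical.

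As background, transferrin-bound iron enters a cell through the transferrin receptor and is released as ferric iron in acidified endosomes. A STEAP reductase converts it to ferrous iron, and SLC11A2 carries it into the cytosol. Ferroportin, encoded by SLC40A1, is the only known iron exporter of mammalian cells, and the mitoferrins SLC25A37 and SLC25A28 bring iron into mitochondria for iron-sulfur clusters and heme. When cytosolic iron is low, the iron regulatory proteins bind iron-responsive elements (IREs) in untranslated regions: binding in a 3′ UTR protects a transcript from decay, while binding in a 5′ UTR blocks its translation.

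SLC11A2 and SLC40A1 are the members known to carry an IRE, one at each end of the transcript, so the elements are shown here. Each was found by a search for a C, any 5 bases, the loop letters CAGTG and a base other than G, followed by bases that pair with those 5 (G with T allowed), with at most 1 base left unpaired; capitals mark the bulged C and the 6 loop bases. The SLC11A2 element lies in the 3′ UTR at chr12:50988270-50988295 and the SLC40A1 element in the 5′ UTR at chr2:189580663-189580687, both on the minus strand of GRCh38 (GENCODE release 44 transcripts).
SLC11A2: ccatCagagcCAGTGTgtttctatgg
SLC40A1: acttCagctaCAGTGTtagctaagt
Of 26 SLC11A2 transcripts that the table lists, 25 were in release 44 and 5 held the element; of 7 SLC40A1 transcripts, 3 held it. In both genes, some of the transcripts with the element were non-coding. The table sums a gene's transcripts, so forms with and without the element were measured together for SLC11A2 and for SLC40A1.

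A rough estimate of depth, from a loose fit of low FPKM values to whole counts, was 34500000 to 39000000 fragments per library. In a library 13244 to 13597 genes reached 1 FPKM. The sum of all FPKM was 600261 to 604483 in BafA1 libraries and 634935 to 651311 in the others. HEK293T genes were present, 7 of 8 with a mean of at least 1 FPKM, with a summed level of 691 to 697 FPKM in FAC+BafA1, 859 to 871 in BafA1, 452 to 463 in FAC and 470 to 478 in control. Markers of cells known for iron transport were near 0: none of 4 enterocyte, 4 hepatocyte or 5 macrophage genes reached a mean of 1 FPKM, with APOA4 and CD163 at 0 throughout, and HBA1 alone of 5 erythroid genes did. The summed erythroid level was 1.56 to 2.2 FPKM in FAC+BafA1, 0.83 to 1.28 in BafA1, 2.27 to 2.85 in FAC and 1.81 to 2.05 in control, with HBB at 0. The summed fibroblast level, in which COL1A1 alone reached a mean of 1 FPKM, was 5.42 to 7.87 FPKM in FAC+BafA1, 2.92 to 3.74 in BafA1, 4.93 to 6.7 in FAC and 4.66 to 6.45 in control. Without FAC, the erythroid and fibroblast sums were lower and the HEK293T sum higher in BafA1 than in control, with no overlap, and their part in the members' values was not tested. In 627 gene entries, all 6 libraries of one FAC state stood at 0 and all 6 of the other at 1 FPKM or more; with the libraries parted by BafA1 there were 0 such entries and none of the 10 members was among the 627. Gene entries were thus filled differently with and without FAC, and an effect of FAC cannot be told apart from that difference in comparisons across FAC.

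BafA1 without FAC changed 8 of the 10 members, where 67.1% of all tested genes were called: the importers SLC39A14 and SLC11A2 rose, and the exporter SLC40A1, all 4 reductases and the importer SLC39A8 fell. With FAC given first, BafA1 changed 2 members relative to FAC alone, SLC11A2 and SLC40A1, and both rose, where 19.3% of all genes were called. FAC alone changed 1, SLC11A2, which fell, where 9.56% were called. Each of these counts is near the share over all genes. These are bulk samples, in which fewer cells that express a gene and less of its RNA per cell cannot be told apart. Of the mitoferrins, SLC25A28 passed the test in 1 comparison of group pairs, FAC+BafA1 against control, where 32.9% of all genes were called. SLC25A37 passed in none. The plot of levels by group shows the 12 values of each member.

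**Figure D1:**
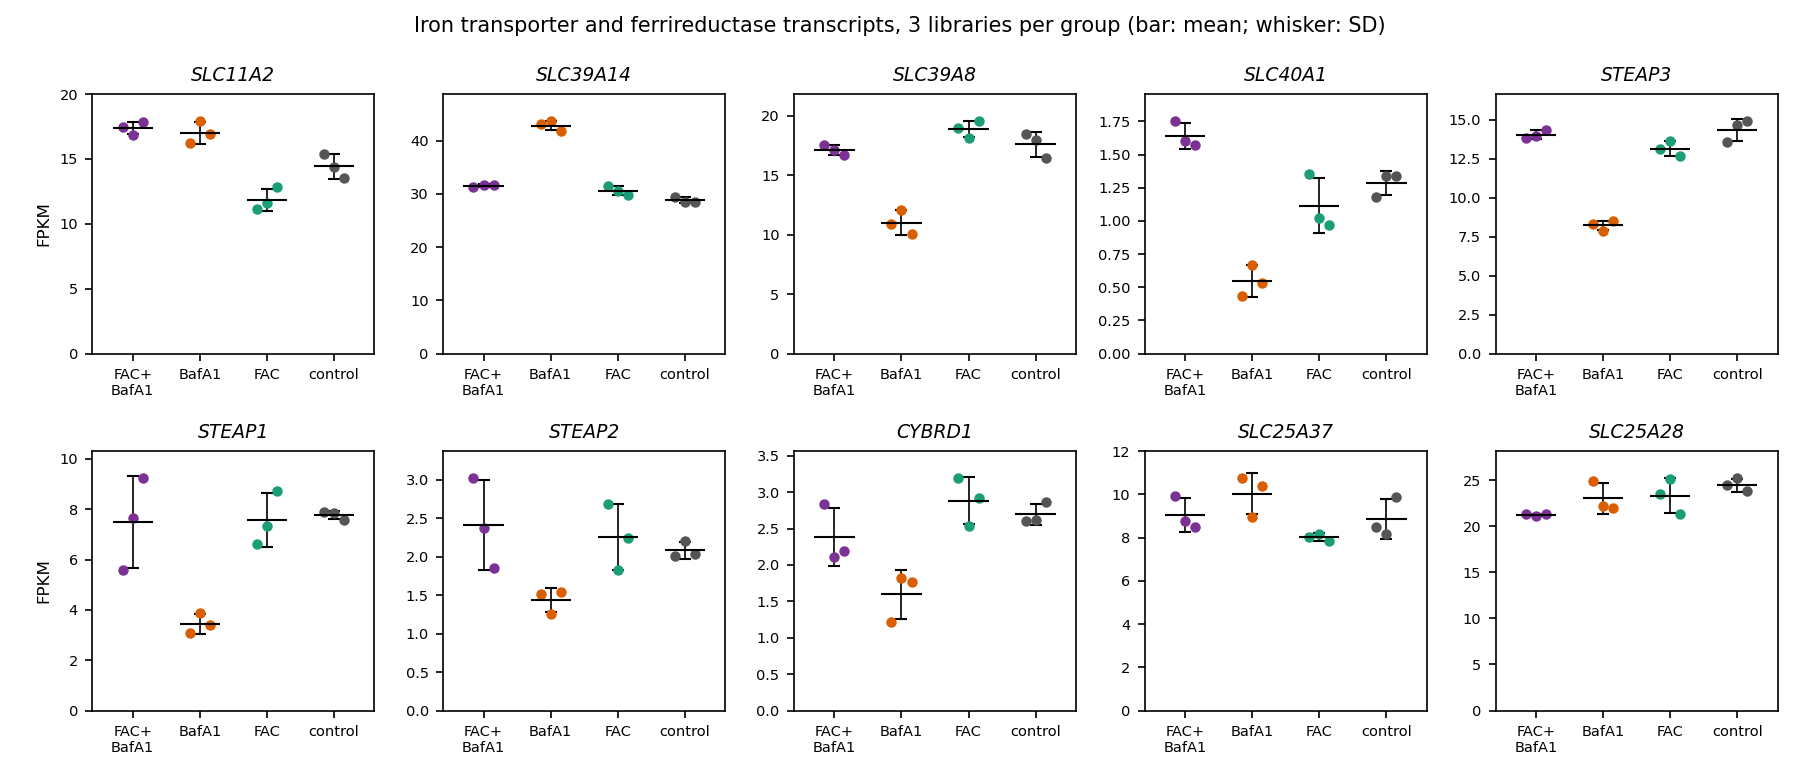
FPKM (y axis, from 0) of the 10 members in FAC+BafA1, BafA1, FAC and control, with 1 point per library, a bar at the mean and a whisker of 1 SD (n = 3). SLC39A8, SLC40A1, STEAP1, STEAP2, STEAP3 and CYBRD1 have their lowest points in BafA1, SLC39A14 has its highest there, and SLC11A2 is above control in both BafA1 groups.

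The test was a limma fit on log2(FPKM + 1) over 13682 genes, in which a gene was called at an adjusted p under 0.05. For BafA1 against control it called 2 members higher and 6 lower, where 67.1% of all tested genes were called, 29.5% higher and 37.6% lower. The same 8 members were those whose libraries did not overlap between these groups, where 68.7% of all genes did not overlap. The response was thus broad, and a count of 8 in 10 stands beside a background of that size. The members' median log2 change was -0.43, against -0.04 over all tested genes. Their median size of change without regard to sign was 0.54, against 0.31. Over all genes the tilt towards lower values depended on scaling. With no scaling added 44% of called genes were higher, and with median-of-ratios scaling 51% were. With that scaling 3 members were higher and 5 lower.

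For FAC against control 0 members were higher and 1 was lower, where 9.56% of all genes were called, 4.72% higher and 4.84% lower; 2 members and 20.3% of all genes did not overlap. For FAC+BafA1 against BafA1, 6 members were higher and 1 lower, where 67.9% were called, 38.8% higher and 29.1% lower, and 8 members and 71.2% of all genes did not overlap. For FAC+BafA1 against FAC, 2 members were higher and 0 lower, where 19.3% were called, 9.76% higher and 9.49% lower, and 6 members and 36.9% of all genes did not overlap. For FAC+BafA1 against control, 2 members were higher and 1 lower, where 32.9% were called, 16.2% higher and 16.6% lower, and 4 members and 46.1% of all genes did not overlap. The interaction subtracts the effect of BafA1 in cells without FAC from its effect in cells with FAC. It was called in 6 members, 5 positive and 1 negative, where 50.1% of all genes were called, 29.5% positive and 20.6% negative. These comparisons share libraries and are not independent of one another.

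SLC11A2 (ENSG00000110911, chr12:50979401-51028566, minus strand of GRCh38), the proton-coupled divalent metal transporter that moves ferrous iron out of endosomes, had 17.4, 16.9 and 17.8 FPKM in FAC+BafA1, 16.2, 17.9 and 16.9 in BafA1, 11.2, 11.6 and 12.8 in FAC, and 15.4, 14.4 and 13.5 in control. Every library with BafA1 was above every library without it, whether or not FAC was present, and every FAC library was below every control library. Without FAC, BafA1 raised it 1.18-fold (log2 0.22 ± 0.06, SE; adjusted p = 0.0062). With FAC it raised it 1.46-fold (log2 0.52 ± 0.06, adjusted p = 0.000144). FAC lowered it to 0.821 of the control mean (log2 -0.26 ± 0.06, adjusted p = 0.0119). FAC+BafA1 and BafA1 overlapped (log2 0.03 ± 0.06, adjusted p = 0.686), and FAC+BafA1 was 1.20-fold above control (adjusted p = 0.00715).

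Both BafA1 increases of SLC11A2 were called in all 21 alternative analyses of each. The FAC decrease was lost in 4 of 21, namely with the pair of groups fitted alone and without FAC replicate 1, FAC replicate 2 or control replicate 1, with adjusted p over the alternatives of 0.00402 to 0.0637. The interaction, 0.29 ± 0.09 log2 units (adjusted p = 0.0137), was lost in 1 of 20, median-of-ratios scaling, with adjusted p from 0.0052 to 0.0674. As a reference for a 3′ IRE transcript, TFRC, the transferrin receptor, averaged 122 ± 3.03 FPKM in FAC+BafA1, 130.2 ± 3.05 in BafA1, 10.2 ± 1.29 in FAC and 58.3 ± 0.991 in control (SD, n = 3). The 4 group means of SLC11A2 spanned 11.9 to 17.4 FPKM, a narrower range than that of TFRC, with FAC lowest and both BafA1 groups above control in each gene.

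SLC39A14 (ENSG00000104635, chr8:22367278-22434129, plus strand), a zinc, manganese and iron importer (ZIP14) that takes up iron not bound to transferrin in mouse liver, was the most abundant member in all 4 groups. It had 31.4, 31.8 and 31.6 FPKM in FAC+BafA1, 43.1, 43.7 and 41.85 in BafA1, 31.55, 30.6 and 29.8 in FAC, and 29.5, 28.6 and 28.5 in control. The BafA1 libraries stood above all 9 others. BafA1 raised it 1.49-fold without FAC (log2 0.56 ± 0.03, adjusted p = 2.31e-08). With FAC the BafA1 change was 0.04 ± 0.03 (adjusted p = 0.407), and the interaction was -0.51 ± 0.05 (adjusted p = 3.43e-06). FAC+BafA1 was at 0.737 of BafA1 (log2 -0.43 ± 0.03, adjusted p = 1.86e-07) and 1.09-fold above control (log2 0.13 ± 0.03, adjusted p = 0.0106). FAC alone was 1.06-fold of control, with no overlap between libraries and an adjusted p of 0.194.

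SLC39A8 (ENSG00000138821, chr4:102251080-102431258, minus strand), the closely related importer ZIP8, went the other way. It had 17.5, 17.2 and 16.7 FPKM in FAC+BafA1, 10.9, 12.1 and 10.02 in BafA1, 19.0, 18.15 and 19.5 in FAC, and 18.45, 17.95 and 16.4 in control. All BafA1 libraries were below all others. BafA1 lowered it to 0.624 of control (log2 -0.64 ± 0.06, adjusted p = 2.29e-06). With FAC the change was -0.13 ± 0.06 (adjusted p = 0.165) and the interaction 0.50 ± 0.09 (adjusted p = 0.00062). FAC+BafA1 was 1.56-fold above BafA1 (adjusted p = 3.71e-06) and did not pass against control (log2 -0.04 ± 0.06, adjusted p = 0.702). A non-coding entry on the same strand that overlaps SLC39A8 (ENSG00000248161) had 0.17 to 1.04 FPKM with FAC and 0 to 0.02 without, and its part in the values across FAC was not tested.

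SLC40A1 (ENSG00000138449, chr2:189560590-189583758, minus strand), which encodes the exporter ferroportin, was the lowest member in every group. It had 1.75, 1.60 and 1.57 FPKM in FAC+BafA1, 0.43, 0.67 and 0.53 in BafA1, 1.35, 1.02 and 0.97 in FAC, and 1.18, 1.34 and 1.34 in control. The BafA1 libraries lay below all others and the FAC+BafA1 libraries above all others. BafA1 lowered it to 0.422 of control (log2 -0.57 ± 0.10 on the log2(FPKM + 1) scale, which understates changes of low genes; adjusted p = 0.000192). FAC+BafA1 was 3.02-fold above BafA1 (log2 0.78 ± 0.10, adjusted p = 1.37e-05), and the interaction was 0.89 ± 0.13 (adjusted p = 0.000178).

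Against FAC, SLC40A1 in FAC+BafA1 was 1.47-fold higher (log2 0.32 ± 0.10, adjusted p = 0.0328). That call was lost in 9 of 20 alternatives, with adjusted p from 0.0148 to 0.102. Among them were the replicate block (adjusted p = 0.0573), quantile normalization, no filter on low values, the pair of groups fitted alone, and leaving out FAC replicate 2 or 3 or any FAC+BafA1 replicate. FAC alone was at 0.865 of control (adjusted p = 0.664). The IRE of this transcript is in the 5′ UTR, where the known effect is on translation, which these data do not measure.

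The promoter of SLC40A1 is shown with its 2 matches to the metal response element core (TGCACNC or TGCGCNC, both strands) in capitals. An entry of STEAP2 also held 2 matches and is not shown. The stretch is the 250 bases before the RefSeq start on GRCh38.p14, chr2:189580787-189581036, minus strand, with 0 annotated SLC40A1 transcripts having an exon there.
SLC40A1 promoter: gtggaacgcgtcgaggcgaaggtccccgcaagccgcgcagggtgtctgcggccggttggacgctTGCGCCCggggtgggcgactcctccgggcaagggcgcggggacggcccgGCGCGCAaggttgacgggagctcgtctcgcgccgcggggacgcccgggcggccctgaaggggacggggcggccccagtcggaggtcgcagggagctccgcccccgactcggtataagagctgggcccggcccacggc
The set of RefSeq promoter sequences used here held 15 entries for 8 members and lacked SLC39A14 and SLC25A37, which were therefore not searched. This core was in 4 of the 15 entries, 1 each of SLC40A1, STEAP2, SLC39A8 and CYBRD1, where 24.8% of all 35093 promoter entries had it. The E-box CACGTG was in 1 of the 15 (SLC39A8; 6.34% of all entries) and the hypoxia core ACGTGC or GCGTGC in 3 (SLC11A2 and SLC39A8; 16.1%). The antioxidant core TGACNNNGC (10.9%) and the ATF4 element TGATGNAAT (0.889%) were in 0 of the 15.

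All 4 reductases fell with BafA1 without FAC. STEAP3 (ENSG00000115107, chr2:119223831-119265652, plus strand), the endosomal ferrireductase of the transferrin cycle in mouse erythroid cells, had 13.8, 13.95 and 14.35 FPKM in FAC+BafA1, 8.32, 7.89 and 8.48 in BafA1, 13.1, 13.6 and 12.65 in FAC, and 13.6, 14.6 and 14.9 in control. All BafA1 libraries, at 8.48 FPKM or less, were below all others, at 12.65 or more. BafA1 lowered STEAP3 to 0.573 of control (log2 -0.73 ± 0.05, adjusted p = 7.05e-08). FAC+BafA1 was 1.70-fold above BafA1 (log2 0.70 ± 0.05, adjusted p = 8.21e-08), and at -0.03 ± 0.05 against control (adjusted p = 0.681). The interaction was 0.82 ± 0.07 (adjusted p = 2.02e-06).

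STEAP1 (ENSG00000164647, chr7:90154456-90164829, plus strand), a family member without the NADPH-binding domain of its relatives, fell with BafA1 to a share of control close to that of SLC40A1 (0.444 for STEAP1 and 0.422 for SLC40A1). It had 5.58, 7.67 and 9.23 FPKM in FAC+BafA1, 3.09, 3.87 and 3.40 in BafA1, 6.62, 7.34 and 8.73 in FAC, and 7.89, 7.84 and 7.58 in control. The BafA1 libraries were below all others, and the spread was wide with FAC (SD 1.83 in FAC+BafA1 and 1.07 in FAC, against 0.166 in control). The BafA1 change of STEAP1 was -0.98 ± 0.14 on the log2 scale (adjusted p = 4.85e-05). FAC+BafA1 was 2.17-fold above BafA1 (adjusted p = 8.77e-05), and the interaction was 0.95 ± 0.20 (adjusted p = 0.00166). STEAP1B, a near-identical copy with which reads may be shared, averaged 1.14 ± 0.268 FPKM in BafA1 and 1.90 ± 0.280 in control (SD, n = 3). The summed FPKM of both genes was 4.60 ± 0.456 in BafA1 and 9.67 ± 0.404 in control, so the decrease was present in the sum.

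STEAP2 (ENSG00000157214, chr7:90167590-90238137, plus strand), a ferric and cupric reductase whose gene follows STEAP1 on chromosome 7, had 3.02, 2.37 and 1.85 FPKM in FAC+BafA1, 1.52, 1.26 and 1.54 in BafA1, 2.69, 1.83 and 2.25 in FAC, and 2.01, 2.21 and 2.03 in control. BafA1 lowered it to 0.691 of control (log2 -0.34 ± 0.13, adjusted p = 0.0324) with no overlap, and all BafA1 libraries were below all others. The call was lost in 8 of 20 alternatives, with adjusted p from 0.0147 to 0.124. These were median-of-ratios scaling, quantile normalization, removal of the differently filled entries together with rescaling, no filter on low values, and leaving out BafA1 replicate 2 or any control replicate. FAC+BafA1 was 1.68-fold above BafA1 (log2 0.47 ± 0.13, adjusted p = 0.00564), and the interaction, 0.40 ± 0.18, did not pass (adjusted p = 0.0829). Leaving out FAC replicate 1 or FAC+BafA1 replicate 3 made it pass, and adjusted p over its 19 alternatives ran from 0.0227 to 0.213.

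CYBRD1 (ENSG00000071967, chr2:171522247-171558129, plus strand), duodenal cytochrome b, reduces ferric iron at the intestinal brush border. It had 2.84, 2.11 and 2.19 FPKM in FAC+BafA1, 1.21, 1.82 and 1.76 in BafA1, 3.19, 2.54 and 2.92 in FAC, and 2.61, 2.62 and 2.86 in control. BafA1 lowered it to 0.592 of control (log2 -0.52 ± 0.11, adjusted p = 0.0015), and all BafA1 libraries were below all others. FAC+BafA1 was 1.49-fold above BafA1 (adjusted p = 0.01), a call lost with quantile normalization only (adjusted p = 0.0552; 0.00861 to 0.0552 over 20 alternatives). The interaction was 0.31 ± 0.16 (adjusted p = 0.125).

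**Figure D2:**
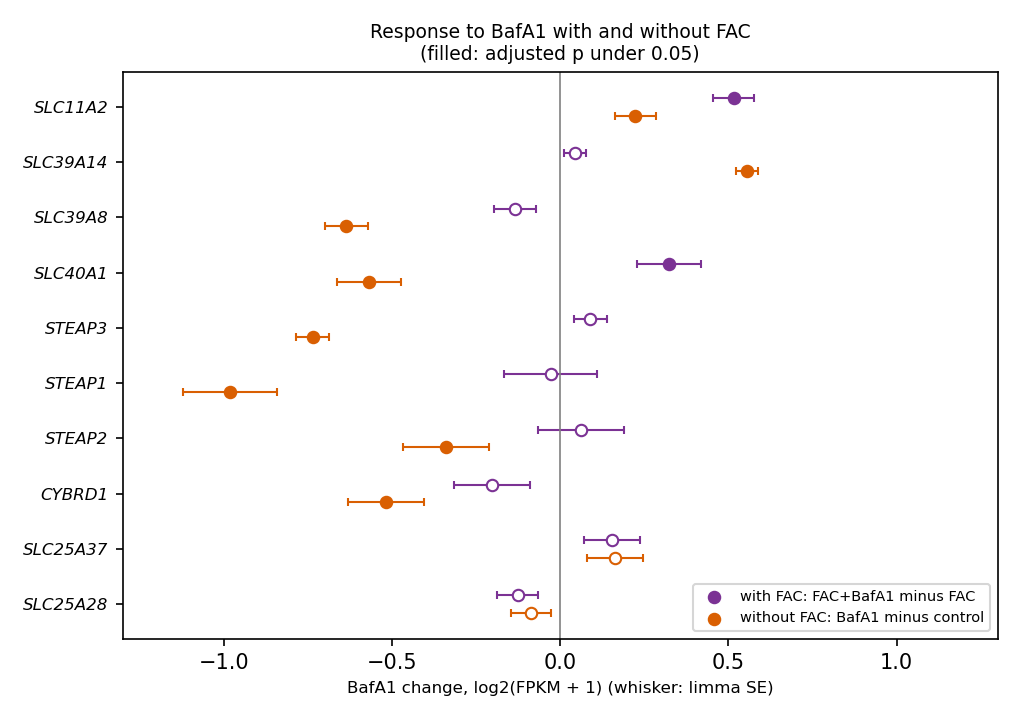
BafA1 change (x axis, log2(FPKM + 1), whisker 1 limma SE) of each member with FAC (upper point, FAC+BafA1 minus FAC) and without FAC (lower point, BafA1 minus control), with filled points at an adjusted p under 0.05. Without FAC, 8 members are filled, from -0.98 for STEAP1 to 0.56 for SLC39A14; with FAC, SLC11A2 at 0.52 and SLC40A1 at 0.32 are filled.

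The mitoferrins bring iron into mitochondria, SLC25A37 chiefly in erythroid cells of mouse and zebrafish and SLC25A28 more widely. SLC25A37 (ENSG00000147454, chr8:23528956-23575463, plus strand) had 9.94, 8.75 and 8.47 FPKM in FAC+BafA1, 10.7, 8.96 and 10.4 in BafA1, 8.04, 8.18 and 7.83 in FAC, and 8.50, 8.17 and 9.89 in control. BafA1 and control overlapped. The BafA1 change of SLC25A37 was 0.16 ± 0.08 without FAC (adjusted p = 0.0994) and 0.15 ± 0.08 with FAC (adjusted p = 0.222), and their difference was -0.01 ± 0.12 (adjusted p = 0.957). The change without FAC passed in 4 of 21 alternatives (adjusted p from 0.0196 to 0.299): median-of-ratios scaling, removal of the differently filled entries together with rescaling, and leaving out BafA1 replicate 2 or control replicate 3.

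SLC25A28 (ENSG00000155287, chr10:99610519-99622793, minus strand), the second most abundant member in every group, had 21.3, 21.1 and 21.3 FPKM in FAC+BafA1, 24.9, 22.2 and 22.0 in BafA1, 23.5, 25.2 and 21.35 in FAC, and 24.5, 25.2 and 23.8 in control. FAC+BafA1 was at 0.867 of control (log2 -0.20 ± 0.06, adjusted p = 0.0253), a call lost in 5 of 21 alternatives (adjusted p from 0.00616 to 0.0849), each leaving out 1 library: any FAC+BafA1 replicate, control replicate 1 or control replicate 2. The opposite-strand entry SLC25A28-DT had 0 to 0.26 FPKM with FAC and 0 without, and its part in this difference was not tested. No comparison of a pair of groups called any other change of either mitoferrin in the main analysis. Of 17 tested genes of iron-sulfur cluster and heme synthesis, which use mitochondrial iron, BafA1 without FAC raised 2 and lowered 11, where 67.1% of all tested genes were called, with a median log2 change of -0.43 against -0.04 for all tested genes. ALAS1, which starts heme synthesis, rose by 0.96 ± 0.04, and NFS1, the cysteine desulfurase, fell by 0.87 on the log2 scale (adjusted p = 2.62e-09 and 9.87e-09). SLC25A39, a mitochondrial glutathione carrier, averaged 104 ± 3.87 FPKM in BafA1 and 159 ± 4.05 in control (log2 -0.61 ± 0.05, adjusted p = 7.55e-07).

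In control cells the order of FPKM levels was SLC39A14, SLC25A28, SLC39A8, SLC11A2, STEAP3, SLC25A37, STEAP1, CYBRD1, STEAP2 and SLC40A1, with means from 28.9 to 1.29. Neighbours in this order did not overlap between libraries except SLC11A2 and STEAP3. In BafA1, SLC11A2 (16.2 to 17.9 FPKM) stood above SLC39A8 (10.02 to 12.1) and STEAP3 (7.89 to 8.48), and SLC39A8 overlapped SLC25A37. The other overlaps of neighbours were CYBRD1 with STEAP2 in BafA1 and FAC, SLC25A37 with STEAP1 in FAC and FAC+BafA1, and SLC11A2 with SLC39A8 and STEAP2 with CYBRD1 in FAC+BafA1. In FAC, STEAP3 (13.1 ± 0.485) and SLC11A2 (11.9 ± 0.853) overlapped, with STEAP3 the higher mean. SLC39A14 and SLC25A28 led in every group.

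Ratios of members within one library do not depend on scaling between libraries. The pairs were chosen after the values were seen, and with 3 libraries against 3 the exact two-sided permutation test cannot go below p = 0.1. The ratio of SLC11A2 to SLC40A1 was 9.96, 10.5 and 11.35 in FAC+BafA1, 37.7, 26.7 and 31.9 in BafA1, 8.27, 11.4 and 13.2 in FAC, and 13.1, 10.75 and 10.1 in control. It was thus 32.1 ± 5.52 in BafA1 and 11.3 ± 1.57 in control (SD, n = 3; exact permutation p = 0.1), with all BafA1 libraries above the rest. In FAC+BafA1 both genes were higher than in FAC, and their ratio was 10.6 ± 0.698 in FAC+BafA1 and 10.95 ± 2.50 in FAC (exact permutation p = 0.9). The ratio of SLC39A14 to SLC39A8 was 1.85 ± 0.0531 in FAC+BafA1, 3.92 ± 0.282 in BafA1, 1.62 ± 0.0844 in FAC and 1.64 ± 0.0826 in control. Its FAC+BafA1 libraries lay between the BafA1 libraries above and the FAC and control libraries below. The ratio of SLC25A37 to SLC25A28 was 0.426 ± 0.0355 in FAC+BafA1, 0.436 ± 0.0351 in BafA1, 0.345 ± 0.0211 in FAC and 0.362 ± 0.0476 in control. For this pair BafA1 and control overlapped (exact permutation p = 0.2), and the FAC+BafA1 libraries were above the FAC libraries (exact permutation p = 0.1, the smallest possible).

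**Figure D3:**
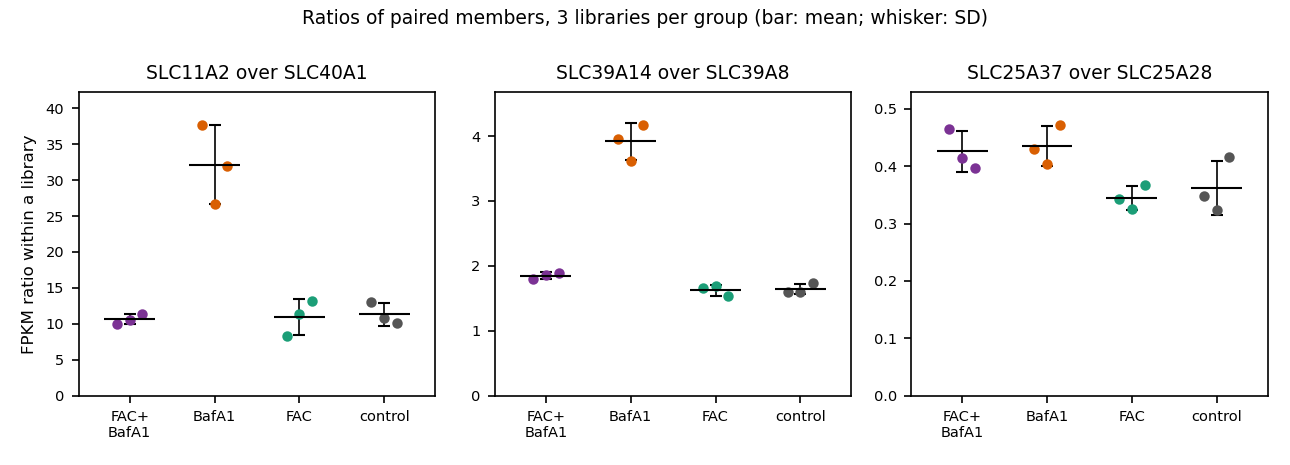
FPKM ratios within a library (y axes, from 0) for SLC11A2 over SLC40A1, SLC39A14 over SLC39A8 and SLC25A37 over SLC25A28 in FAC+BafA1, BafA1, FAC and control, with 1 point per library, a bar at the mean and a whisker of 1 SD (n = 3). In the first 2 panels the BafA1 points, at 26.7 or more and 3.62 or more, are above all others.

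The ZIP family, to which SLC39A14 and SLC39A8 belong, had 11 of 14 genes tested, of which BafA1 without FAC raised 3 and lowered 7, beside the same 67.1% called over all genes (median log2 change -0.32, against -0.04 over all tested genes). SLC39A7, which releases zinc from the endoplasmic reticulum, rose by 0.55 ± 0.04 (adjusted p = 1.14e-07), as SLC39A14 did. SLC39A1, a plasma membrane zinc importer, fell by 0.52 (adjusted p = 1.53e-08). SLC39A10, another zinc importer, averaged 40.9 ± 0.847 FPKM in FAC+BafA1, 14.5 ± 0.457 in BafA1, 36.1 ± 0.188 in FAC and 24.3 ± 0.489 in control (SD, n = 3). It was the 1 family member called for FAC against control (log2 0.55 ± 0.03, adjusted p = 4.92e-08), where both SLC39A14 and SLC39A8 missed the threshold.

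Of a list of 33 other iron uptake, export and reduction genes, 21 were tested. BafA1 without FAC raised 4 of these and lowered 8, and 9 were not called, where 67.1% of all genes were called. Their median log2 change was -0.10, against -0.04 over all tested genes. Without regard to sign their median size of change was 0.21, smaller than the 0.31 over all tested genes. TFRC rose by 1.15 on the log2 scale (SE 0.06, adjusted p = 1.04e-08), and NDFIP1, an adaptor that directs SLC11A2 protein to ubiquitin ligases, fell by 0.36 (adjusted p = 3.81e-05). With FAC, BafA1 raised 4 and lowered 0 of the 21, where 19.3% of all genes were called. They were TFRC, NDFIP2 (0.26 ± 0.03, adjusted p = 0.000174), which is the relative of NDFIP1, MCOLN1 (0.42 ± 0.08, adjusted p = 0.00447), a lysosomal channel that passes ferrous iron, and FRRS1 (0.28 ± 0.07, adjusted p = 0.0163), a ferric reductase of the cytochrome b561 family. The antisense genes STEAP2-AS1 (at most 0.03 FPKM) and STEAP3-AS1 (at most 0.09 FPKM), which overlap STEAP1, STEAP2 and STEAP3, were near 0 in all libraries. STEAP4, the remaining STEAP reductase, had at most 0.01 FPKM in any library and was not tested.

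Of 8 tested transcripts with a known IRE, SLC11A2 and SLC40A1 among them, BafA1 without FAC raised 4 and lowered 2, SLC40A1 and FTH1, where 67.1% of all genes were called. BafA1 with FAC raised 6 and lowered 0, where 19.3% were called (median log2 change 0.29, against 0.0006 over all tested genes). The SLC40A1 call among the 6 was the one lost in 9 of 20 alternatives. Besides TFRC and the members these included FTL (0.21 ± 0.04, adjusted p = 0.00347), FTH1, the ferritin heavy chain (0.25 ± 0.04, adjusted p = 0.000795), and EPAS1, a hypoxia-inducible factor subunit (0.63 ± 0.12, adjusted p = 0.00342). FAC alone raised 1, FTL, the ferritin light chain (0.30 ± 0.04, adjusted p = 0.000102), and lowered 2, TFRC (-2.40 ± 0.06, adjusted p = 6.71e-12) and SLC11A2. The list pools 3′ elements, as in TFRC and SLC11A2, with 5′ elements, as in SLC40A1, so its counts do not describe a single kind of response. Reads of FTH1 and FTL may be split with their processed pseudogenes, and both are uncertain for that reason.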

How the data were processed

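RNA was measured in 12 HEK293T libraries, 4 groups of 3, made with a stranded mRNA kit as the labels' protocols state. The authors deposited FPKM per gene, rounded to 2 decimals; STAR, RSEM and GRCh38 are named in the submitters' processing notes. The sources used here give no versions, annotation, filters or strand setting. Of 56340 entries, 3 repeated a gene ID with 0 throughout and were dropped. Depth was estimated from the steps of low FPKM, assuming fragments of 150 bases. At the best depth 45.59 to 58.73% of low values lay within 0.2 of a whole count. Evenly spread values would often lie that close too, so the depth is only a rough guide. No counts were recovered and no count model was run.

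No scaling was added; log2(FPKM + 1) was taken, and genes averaging 1 FPKM or more over all libraries were tested. limma 3.58.1 in R 4.3.3 fitted 4 group means to all 12 libraries with an intensity trend, and p-values were adjusted by Benjamini-Hochberg over all tested genes in each of 6 comparisons. The fit was also run on simulated data with independent noise and known changes in a small share of genes. Changes with BafA1 were broad in the real data, so no conclusion is drawn from that run. Folds are ratios of mean FPKM; errors are SDs over 3 libraries or limma standard errors.

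The members and gene lists were chosen with earlier results of these data known. All members were named in every comparison; from each other list, up to 4 called genes with the smallest adjusted p per comparison could be named, with TFRC as the reference transcript. In the IRE list FTL, for FAC+BafA1 against FAC, and FTH1, for BafA1 against control, were named beyond those 4. STEAP1B and STEAP4 were named after their values were seen. Alternatives changed the pseudocount, filter, scaling, variance trend, groups fitted and replicate block, removed differently filled entries and rescaled the libraries to one total, or left out 1 library. IREs and promoters were searched in GENCODE release 44 and RefSeq sequences. One of the genes most like a member is not reported here.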

Additional observations from a re-analysis of the deposited data

Results flagged for a closer look

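The response to BafA1 differed with and without FAC in 6 of the 10 members by limma's interaction test, at an adjusted p under 0.05, where 50.1% of all tested genes were called. The BafA1 change with FAC minus that without was 0.95 for STEAP1, 0.89 for SLC40A1, 0.82 for STEAP3, 0.50 for SLC39A8, 0.29 for SLC11A2 and -0.51 for SLC39A14, in log2 units. For STEAP1, STEAP3, SLC39A8 and SLC39A14 the BafA1 change was called without FAC and missed the threshold with FAC. For SLC40A1 it was negative without FAC and positive with FAC, and for SLC11A2 it was positive in both and larger with FAC. No group had enough libraries for a check of single outlying samples.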

How the results depend on the processing

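Of 27 called member changes, 21 were called in every alternative, and of 33 uncalled ones 28 were called in none. Besides the gains of STEAP2 and SLC25A37 given above, SLC25A37 and SLC25A28 passed for FAC+BafA1 against BafA1 in 3 and 2 of 21 alternatives (adjusted p 0.0428 to 0.425 and 0.0115 to 0.441), with removal and rescaling, with median-of-ratios scaling and, for SLC25A37, without BafA1 replicate 2; SLC25A28 passed for FAC+BafA1 against FAC without FAC replicate 3 (0.0455 to 0.477). The number of members called moved by over 1.5 times as follows. With a mean of at least 5 FPKM, which left SLC40A1, STEAP2 and CYBRD1 out, it was 5 for BafA1 against control, 4 for FAC+BafA1 against BafA1 and 1 for FAC+BafA1 against FAC. For FAC+BafA1 against FAC it was also 1 with the pair fitted alone, with no filter, with quantile normalization and with the replicate block; for FAC against control it was 0 with the pair fitted alone. Leaving out 1 library gave 7 to 8 members for BafA1 against control, 0 to 1 for FAC against control, 7 to 8 for FAC+BafA1 against BafA1, 1 to 2 for FAC+BafA1 against FAC, 2 to 3 for FAC+BafA1 against control and 6 to 7 for the interaction. All genes called for FAC against control numbered 1308, but 747 with the differently filled entries removed and the libraries rescaled, a pair of changes made together throughout, 402 at a mean of at least 5 FPKM and 4486 with no filter; for FAC+BafA1 against control they numbered 4498, and 7643 with no filter. The share of called genes that were higher moved by over 10 percentage points for FAC+BafA1 against FAC (50.7%, and 61.5% with removal and rescaling) and for the interaction (58.9%, and 48.6% with median-of-ratios scaling or with removal and rescaling). For BafA1 against control, 44% of called genes were higher in the main analysis, 51% with median-of-ratios scaling and 53.6% with removal and rescaling. For FAC+BafA1 against BafA1 these shares were 57.2%, 49.8% and 48.2%. In both comparisons the more frequent direction thus turned. Log2 changes that turned sign were uncalled before and after. Outside leave-one-out these were SLC11A2 in FAC+BafA1 against BafA1 (-0.048 with removal and rescaling, -0.034 with median-of-ratios scaling), SLC25A37 in FAC+BafA1 against control (-0.015 with quantile normalization) and SLC25A28 in BafA1 against control (0.0076 with removal and rescaling). Leaving out 1 library gave -0.0023 to 0.064 for SLC11A2 in FAC+BafA1 against BafA1; for STEAP1, -0.14 to 0.039 in FAC against control, -0.17 to 0.14 in FAC+BafA1 against FAC and -0.22 to 0.10 in FAC+BafA1 against control; for STEAP2, -0.023 to 0.17 in FAC against control and -0.063 to 0.18 in FAC+BafA1 against FAC; for SLC25A37, -0.032 to 0.10 in FAC+BafA1 against control and -0.083 to 0.041 in the interaction; and for SLC25A28, -0.10 to 0.016 in the interaction. The causes were not tested. Of 18 pairs of same-numbered libraries 1 had deviations that correlated above 0.1, and a library correlated best with its own number in 14 of 36 cases, so the numbers are not taken to pair libraries. With the replicate block 9082 genes were called for BafA1 against control, and of the member calls SLC40A1 in FAC+BafA1 against FAC was the only one that changed.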

Other observations

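The genes whose 4 group means lay closest to those of SLC11A2, each centred on its own mean log2(FPKM + 1), were PKD1P1, RGPD5 and AK9, at distances of 0.07, 0.07 and 0.08 log2 units. Candidates were the tested genes with a regular gene symbol. Like SLC11A2 the 3 genes were lowest in FAC, with both BafA1 groups above control, a likeness that follows from how they were picked. PKD1P1 is a pseudogene and RGPD5 belongs to a family of near-identical copies, so both values are uncertain. AK9, an adenylate kinase family gene, averaged 2.59 FPKM in FAC+BafA1, 2.80 in BafA1, 1.57 in FAC and 2.13 in control. Among the genes closest to SLC39A14 were CEP128, a centriole gene, and the non-coding ANKRD10-IT1, at distances of 0.01 and 0.02. CEP128 averaged 7.17 FPKM in FAC+BafA1, 10.07 in BafA1, 7.003 in FAC and 6.51 in control. These likenesses describe 4 group means over 12 libraries.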
